A study of Homo sapiens with 14 samples.

Results

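The response of ferrostatin-1-treated HT-29 cells to tumour necrosis factor (TNF) was read from 5 of the 14 libraries of the series. They are the 3 libraries of cells given TNF together with ferrostatin-1 and the 2 libraries of cells given ferrostatin-1 alone, and they were chosen by their group labels. All 36555 gene IDs of the count table were considered, and the 22179 that passed the filter on low counts were tested. HT-29 is an established human colorectal carcinoma line, labelled as wild type. Both groups received 20 uM ferrostatin-1 for 72 h, and the TNF group also received human recombinant TNF, labelled as 100 ug/ml. The other 9 libraries were 3 controls (0.1% DMSO), 2 with TNF alone, 2 with 20 uM liproxstatin-1 and 2 with TNF and liproxstatin-1. The labels state that TNF was used to induce apoptosis and that the inhibitors were also given without TNF to see their effect on resting cells. The replicates are described as technical, so each p-value measures only the spread between these libraries, and no separate cultures are known to enter the tests.

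TNF is a cytokine that binds the receptors TNFR1 and TNFR2 and leads to activation of the NF-kB transcription factors. NF-kB then switches on chemokines, adhesion molecules, survival genes and its own inhibitors, while the same receptor complex can also start caspase-dependent death. Ferrostatin-1 is a radical-trapping antioxidant that blocks ferroptosis, a form of death driven by peroxidation of membrane lipids in the presence of iron. HT-29 cells keep features of colonic epithelium, including keratins, villin and secretory products, and intestinal epithelium responds to TNF and interferons with chemokine release and antigen presentation.

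Library numbers below are those of the count columns, where the ferrostatin-1 libraries carry 1 and 3. Total counts over the 14 libraries lay between 59913850 and 75838597. The scaling factors (TMM) of all libraries lay between 0.947 and 1.053. Mitochondrial genes took 5.43% and 5.52% of the counts in the ferrostatin-1 libraries and 4.48% to 4.83% with TNF. The 2 ferrostatin-1 libraries were at least 2-fold apart (on CPM plus 1) in 157 tested genes, and pairs of the TNF libraries in 90 to 131. By contrast, the 2 libraries with TNF alone were 2-fold apart in 1726 genes, which bears on the comparison with cells without inhibitor at the end. Levels are given as CPM, counts scaled to a common library total with TMM. Ferrostatin-1 library 1 stood apart from library 3 in single genes, among them BEST1 (291.6 against 7.65 CPM), KRT7 (100.2 against 9.51) and KRT81 (57.1 against 1.45). The endothelial gene VWF had 0.262 CPM in library 1 against 22.9 in library 3, and 29.1, 3.02 and 4 CPM with TNF. Other endothelial genes were also lower in library 1 than in library 3. They were PECAM1 (0.705 against 9.25 CPM), CDH5 (0.111 against 3.92), KDR (0 against 1.87) and TEK (0.0829 against 0.686). With TNF, PECAM1 lay at 11.2, 5.16 and 5.07 CPM and CDH5 at 3.97, 3.1 and 3.68 CPM. The Y chromosome genes RPS4Y1 and USP9Y had means of 1.42 (SD 2.0) and 0.299 (SD 0.359) CPM with ferrostatin-1 alone. Neither had a count in any library with TNF and ferrostatin-1. The source of the RNA of these endothelial and Y chromosome genes was not tested. In bulk RNA, fewer cells of a type and less RNA per cell cannot be told apart.

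The labelled cell type was read from markers. KRT8, KRT18 and EPCAM, epithelial markers, lay at 4788.3 to 5339.4, 2658.4 to 2921.9 and 426.7 to 542.8 CPM over the 5 libraries. Intestinal markers lay at widely different levels. KRT20 was at 329.5 to 524.3 CPM, LGALS4 at 152.8 to 678.6, VIL1 at 96.1 to 168.9, HNF4A at 15.9 to 30.3 and CDX2 at 4.44 to 5.94. The colonic markers CDX1 and GPA33 were near 0, between 0.111 and 0.884 CPM. LGALS4, VIL1 and HNF4A fell with TNF, as given below. Of 16 leukocyte genes measured, PTPRC, FCER1G and AIF1 had no count in any of the 5 libraries. The list summed to 975.4 and 1042.2 CPM without TNF and to 1041.1 to 1192.4 CPM with it, nearly all from LYZ at 950.2 to 1136.5 CPM, and 2 of the 12 tested, ITGAM and LAPTM5, rose with TNF. The 15 fibroblast and endothelial genes summed to 18.6 and 49.4 CPM without TNF and 17.6 to 55.4 CPM with it, with 1 rise (ACTA2) and 1 fall (DCN), both at low levels, and the call of DCN was lost without any 1 of the 5 libraries. Those sums mix genes that went different ways, and the list's median log2 change was -0.88. Of the 15 genes, 6 were lower in every TNF library than in both ferrostatin-1 libraries and 1 was higher. Over all tested genes 27.2% were lower in this way and 27.5% higher. COL1A1, a fibroblast collagen, was at 8.97 and 5.34 CPM without TNF and at 3.47, 1.87 and 3.81 CPM with it (adjusted p = 0.174). COL1A2 was at 3.69 and 1.31 CPM without TNF and had no count in any of the 3 TNF libraries (adjusted p = 0.0647), and COL3A1 was at 2.21 and 1.3 CPM without TNF and at 0.032, 0 and 0 CPM with it (0.0514). The part of such markers in the results was not tested.

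Because many genes that rose are textbook targets of NF-kB and of interferon factors, stretches of 10 of their promoters are printed first. They were taken from RefSeq (GRCh38.p14) and chosen for a match and for their part in the results. Each runs 5′ to 3′ on the gene's strand, and capitals mark the matched bases. The motifs searched on both strands, in the 250 bases before the start, were GGAANTTCC and GGGA-any base-TTTCC (NF-kB type, which can overlap each other), GAAA followed by any 2 bases and GAAA (interferon response element type) and TTCNNNGAA (STAT type).
TNFAIP3: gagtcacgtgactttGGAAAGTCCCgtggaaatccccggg
NFKBIA: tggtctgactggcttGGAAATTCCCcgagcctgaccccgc
CXCL8: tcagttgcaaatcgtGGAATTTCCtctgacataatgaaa
ICAM1: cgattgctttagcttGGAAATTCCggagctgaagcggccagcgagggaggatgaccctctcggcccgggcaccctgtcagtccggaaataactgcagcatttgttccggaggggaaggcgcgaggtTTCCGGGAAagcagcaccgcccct
IL32: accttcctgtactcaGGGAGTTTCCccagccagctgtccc
LTB: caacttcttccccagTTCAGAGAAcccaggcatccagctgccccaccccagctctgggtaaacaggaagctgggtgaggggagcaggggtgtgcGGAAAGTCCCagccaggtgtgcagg
CXCL10: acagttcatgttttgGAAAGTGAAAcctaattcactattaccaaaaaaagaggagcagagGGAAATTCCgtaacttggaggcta
GBP4: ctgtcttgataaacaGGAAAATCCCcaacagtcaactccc
TAP1: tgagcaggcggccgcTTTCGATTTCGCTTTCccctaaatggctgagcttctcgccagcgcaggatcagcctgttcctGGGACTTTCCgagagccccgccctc
B2M: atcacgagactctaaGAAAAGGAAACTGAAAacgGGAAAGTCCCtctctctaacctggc

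These stretches lie at chr6:137867177-137867216 (TNFAIP3, plus strand), chr14:35404806-35404845 (NFKBIA, minus), chr4:73740463-73740501 (CXCL8, plus), chr19:10270919-10271068 (ICAM1, plus) and chr16:3065289-3065328 (IL32, plus). The others lie at chr6:31582487-31582605 (LTB, minus), chr4:76023650-76023733 (CXCL10, minus), chr1:89198963-89199002 (GBP4, minus), chr6:32853752-32853853 (TAP1, minus) and chr15:44711358-44711416 (B2M, plus). Every stretch holds an NF-kB type match, and those of CXCL10, TAP1 and B2M hold a response element match as well. The matched bases of NFKBIA hold both NF-kB patterns, which overlap there. A promoter entry was found by symbol for 12835 of the tested genes. Either NF-kB pattern was present in 1.25% of these and in 1.22% of all 27305 RefSeq promoters. The share was 3.32% of 1326 promoters of genes that rose with TNF, 12% of 125 that rose at least 4-fold, and 0.737% of 1493 that fell. The response element pattern was present in 2.44% of tested promoters (3.07% of all RefSeq promoters), 4.75% of those that rose, 12% of those that rose at least 4-fold and 1.61% of those that fell. For the STAT type pattern the shares were 5.57% (6.78% of all RefSeq promoters), 6.18%, 8.8% and 4.29%. Among called chemokine genes 8 of 12 promoters held an NF-kB pattern, and among called interferon-stimulated genes 17 of 34 held the response element pattern. Of 39 promoters of called replication genes, 1 held an NF-kB pattern and none the response element pattern. A match is a description of these letters and shows no binding.

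With TNF, 4019 of the 22179 tested genes (18.1%) changed at an adjusted p below 0.05 in edgeR's quasi-likelihood test, which is what "called" means here. Of these, 1943 rose (8.76%) and 2076 fell (9.36%). The call counts of the gene lists below are to be read beside these shares of all tested genes. Rises reached further than falls: 856 genes rose at least 2-fold (3.86%) and 553 fell at least 2-fold (2.49%), and at a log2 change of 3 or more the counts were 118 and 65. The median log2 change was 0.016 over all tested genes, and the median size of a called change was 0.77. The number of calls depended on the ferrostatin-1 libraries. It was 1877 without ferrostatin-1 library 1 and 1919 without library 3, and 2833 to 2870 when 1 TNF library was left out. It was 6391 when the 2 libraries with TNF alone were left out of the model, which pools the spread of all groups. In all 5 of those fits 1386 calls were kept, 663 of them rises and 723 falls. The TNF libraries all lay above both ferrostatin-1 libraries in 6098 tested genes (27.5%) and all below in 6040 (27.2%). Except where a paragraph says otherwise, every gene said below to have risen or fallen was also called with any 1 of the 5 libraries left out. A fit without a ferrostatin-1 library has only 1 library in that group. Calls lost in such a fit do not by themselves show a smaller change.

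**Figure D1:**
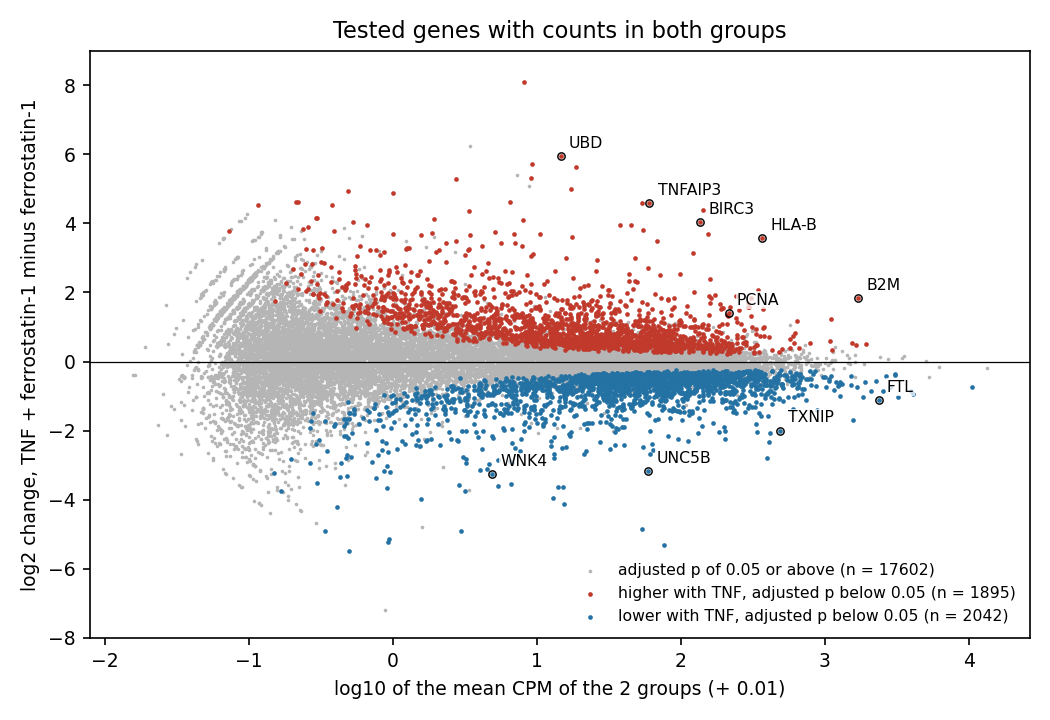
Log2 change between TNF with ferrostatin-1 and ferrostatin-1 alone (vertical axis) against log10 mean CPM of the 2 groups (horizontal axis) for tested genes with counts in both groups. Each point is a gene, with 1895 called rises in red, 2042 called falls in blue, and 17602 uncalled genes in grey around 0.

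Several genes of immune signalling were among the 20 largest rises. UBD, which encodes the ubiquitin-like protein FAT10, was at 0.511 and 0.418 CPM without TNF and at 33.3, 28.2 and 25.2 CPM with it. The groups were far apart, and the change was 61.8-fold (log2 5.95 ± 0.28 SE, adjusted p = 2.9e-07). The TNF transcript itself lay at 0.428 and 0.254 CPM without TNF and at 17.7, 17.5 and 19.3 CPM with it (log2 5.72 ± 0.39, adjusted p = 3.2e-06). LTB, which encodes lymphotoxin beta, rose from 0.967 and 0.522 CPM to 43.9, 33.6 and 33.3 CPM (log2 5.62 ± 0.37). MEFV, which encodes the inflammasome sensor pyrin, had no count in either ferrostatin-1 library and 1.86, 1.54 and 1.59 CPM with TNF. Against the level that 3 counts per library would give (0.045 CPM), this was at least 37.1-fold higher. ITGAM, an integrin chain better known from myeloid cells, rose from 0.332 and 0.552 CPM to 18.7, 17 and 17.4 CPM (log2 5.32 ± 0.22), while the pan-leukocyte gene PTPRC had no count in any of these libraries. Other genes among the 20 largest rises were IL4I1 (log2 5.01), a secreted amino acid oxidase, HDAC9 (4.62), a histone deacetylase, CD83 (4.09), IL2RG (4.36), the shared receptor chain of several interleukins, and the phospholipase gene PLA2G4C (5.29). OR2I1P, an olfactory receptor locus inside the MHC region that is counted as a pseudogene, rose from 0.111 and 0 CPM to 17.6, 13.5 and 17.4 CPM, and its neighbours' reads could be shared with it. RP1 was among these 20 too, but its call ended without ferrostatin-1 library 3 (adjusted p = 0.0618).

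NF-kB subunits and the feedback inhibitors of the pathway mostly rose. Of 25 tested members 15 rose and 1 fell, and the median log2 change was 0.74. The counts were 15 and 1 without ferrostatin-1 library 1 and 14 and 1 without library 3. TNFAIP3, which encodes the ubiquitin-editing inhibitor A20, was at 4.88 CPM in both ferrostatin-1 libraries and at 113.5, 113.6 and 122.4 CPM with TNF. This was a 23.9-fold rise (log2 4.58 ± 0.15, adjusted p = 2.1e-08). NFKBIA, the inhibitor IkB alpha, was at 26.8 and 31.6 CPM without TNF and at 168.4, 169.4 and 168.6 CPM with it (log2 2.53 ± 0.12, adjusted p = 2.1e-07). The subunit genes NFKB2 (log2 2.02), RELB (1.97) and NFKB1 (0.68) rose, whereas RELA lay at 160.5 and 167.1 CPM without TNF and at 139.2, 132.8 and 142.4 CPM with it and was not called (adjusted p = 0.29). IKBKE, a kinase of the IKK family, rose by 1.94 ± 0.11 and TNFAIP2 by 1.53 ± 0.08 on the log2 scale. The 1 member that fell was TNIP2, an A20-binding protein, at 101 and 100.3 CPM without TNF and 70.7, 66.5 and 61.8 CPM with it (log2 -0.60 ± 0.11). On the per-length scale of the deposited FPKM (fragments per kilobase and per total fragments), NFKBIA was the more abundant with TNF, at 72.1 ± 0.492 against 23.5 ± 1.19 FPKM for TNFAIP3 (SD, n = 3). In the deposited table TNFAIP3 (ENSG00000118503) spans positions 137867214 to 137883312 of chromosome 6, NFKBIA (ENSG00000100906) 35401513 to 35404749 of chromosome 14 and CXCL8 (ENSG00000169429) 73740541 to 73743716 of chromosome 4. The files and labels used here name no build for these positions.

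**Figure D2:**
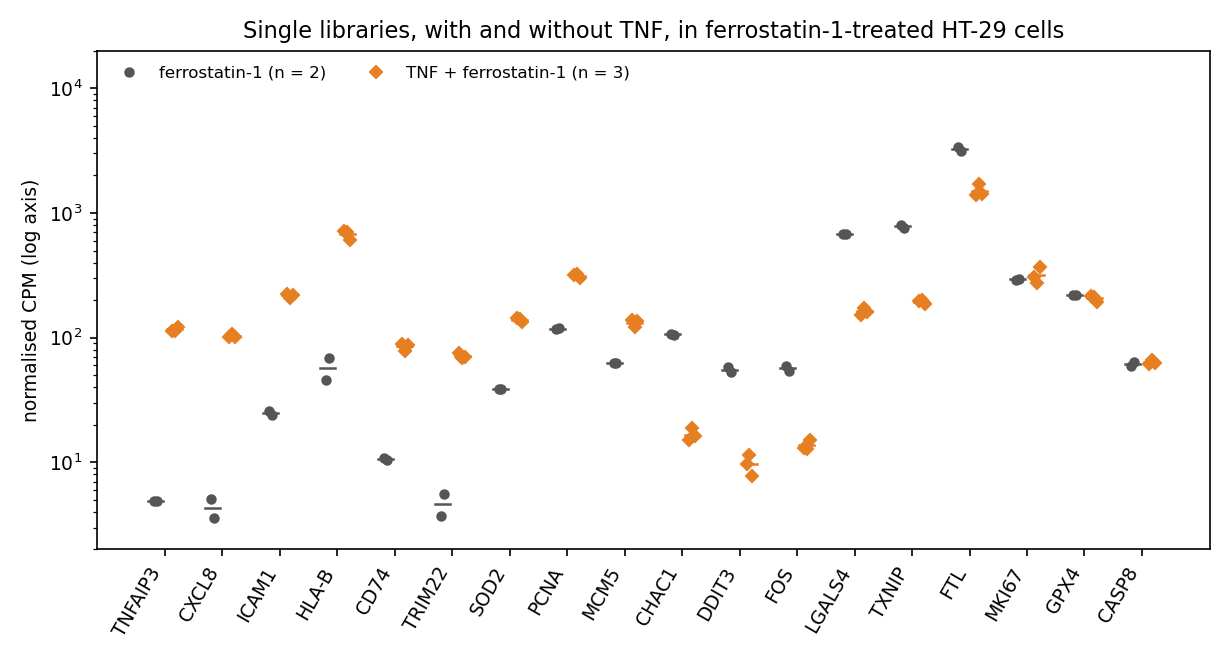
CPM of 18 genes on a log axis in each library with ferrostatin-1 alone (grey circles, n = 2) and with TNF and ferrostatin-1 (orange diamonds, n = 3), with horizontal bars at the group means. TNFAIP3 lies at 4.88 CPM without TNF and 113.5 to 122.4 CPM with it, CHAC1 at 105.8 and 106.4 without TNF and 15.1 to 18.8 with it, and the points of CASP8 and MKI67 overlap between the groups.

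Chemokines and other secreted signals included several of the largest rises. Of 28 tested genes 17 rose and 2 fell, with a median log2 change of 1.26. The counts fell to 12 rises without ferrostatin-1 library 1 and to 10 rises and 1 fall without library 3. CXCL8, the neutrophil attractant interleukin-8, was at 5.06 and 3.57 CPM without TNF and at 102, 107.2 and 100.8 CPM with it (log2 4.58 ± 0.16, adjusted p = 3.5e-08). IL32, a pro-inflammatory cytokine, went from 6.35 and 4.54 CPM to 82.7, 93.6 and 77.3 CPM (log2 3.96 ± 0.20). CXCL10, a T cell attractant induced by interferon, went from 1.45 and 1.6 CPM to 22, 17.9 and 19.3 CPM (log2 3.69 ± 0.28). In all 3 genes every TNF library lay far above both ferrostatin-1 libraries. CX3CL1 (log2 2.62), the membrane-bound fractalkine, CXCL1 (3.00), another neutrophil attractant, CCL28 (2.25), a mucosal chemokine, CSF1 (2.14), the macrophage growth factor, and IL23A (3.66), a subunit of interleukin-23, rose as well. The 2 falls were IL1B and CXCL5, both uncertain. IL1B was at 2.02 and 1.64 CPM without TNF and 1.1, 0.968 and 1.13 CPM with it, and its call ended without any 1 of the 5 libraries (adjusted p 0.0752 to 0.264). CXCL5 had counts only in ferrostatin-1 library 1 (4.49 CPM).

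Among TNF superfamily ligands and receptors 7 of 25 tested genes rose and 3 fell (median log2 change 0.42). The ligand genes TNF, LTB and TNFSF10 rose. TNFSF10, the death ligand TRAIL, lay at 8.27 and 12 CPM without TNF and at 46.9, 50.1 and 41.9 CPM with it (log2 2.19 ± 0.20, adjusted p = 2.6e-05). The genes of the 2 TNF receptors moved in opposite directions. TNFRSF1B, which encodes TNFR2, was at 0.843 and 1.37 CPM without TNF and at 8.69, 8.15 and 7.24 CPM with it (log2 2.86 ± 0.39, adjusted p = 0.00049). TNFRSF1A, which encodes TNFR1, was at 173.8 and 177.5 CPM without TNF and at 110.5, 110.9 and 114.2 CPM with it. This fall of 0.65 ± 0.14 on the log2 scale (adjusted p = 0.00777) was not called without ferrostatin-1 library 3 (0.0587). Per length, TNFRSF1A was the more abundant receptor with TNF, at 28.3 ± 0.685 FPKM against 2.15 ± 0.18 FPKM for TNFRSF1B (SD, n = 3). TNFRSF12A, the receptor of TWEAK, fell by 1.17 ± 0.25. FAS, a death receptor, was at 4.57 and 5.39 CPM without TNF and 15.8, 14.9 and 13.9 CPM with it (log2 1.58 ± 0.32), and its call ended without ferrostatin-1 library 1 (adjusted p = 0.0681).

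Of 24 tested adhesion ligands and integrins 7 rose and 3 fell (median log2 change 0.27), and without ferrostatin-1 library 1 the counts were 3 and 2, without library 3 they were 4 and 2. ICAM1, the endothelial and epithelial ligand of leukocyte integrins, was at 25.7 and 23.8 CPM without TNF and at 225.2, 208.3 and 220.1 CPM with it. This was an 8.8-fold rise with no overlap (log2 3.14 ± 0.12, adjusted p = 7.5e-08). CD47, a signal that inhibits phagocytosis, rose by 1.19 ± 0.14. CD44, the hyaluronan receptor, fell from 439.6 and 433.6 CPM to 277.4, 255.6 and 281.5 CPM (log2 -0.69 ± 0.09). The other 2 called falls were ITGB5 and ITGA3, integrin chains, and that of ITGA3 was lost without any 1 of the 5 libraries.

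Interferon-stimulated genes, which encode antiviral effectors, moved in one direction among the called genes. Of 58 tested genes 43 rose and none fell, with a median log2 change of 1.06. This count was 24 without ferrostatin-1 library 1 and 38 without library 3. TRIM22, an antiviral ubiquitin ligase, was at 3.7 and 5.58 CPM without TNF and at 75.2, 69.2 and 69.4 CPM with it (log2 3.94 ± 0.22). IFITM1, which blocks entry of viruses at membranes, was at 15.8 and 28.4 CPM without TNF and at 305.3, 283 and 274.3 CPM with it (log2 3.70 ± 0.25). GBP4, a guanylate-binding protein, went from 2.82 and 2.49 CPM to 35.2, 33.2 and 28.5 CPM (log2 3.60 ± 0.19, adjusted p = 5.5e-07). For TRIM22 and IFITM1 ferrostatin-1 library 3 lay above library 1, but below every TNF library. The same order of the 2 ferrostatin-1 libraries was present in OAS2, an RNA sensor enzyme, at 97.9 and 169.2 CPM without TNF and 591, 531.1 and 545.4 CPM with it (log2 2.06 ± 0.27). IFITM2, IFITM3 and IFITM1 are close copies, so their split of reads is uncertain.

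The factors upstream of these genes rose in part. Of 26 interferon regulatory factors, STATs, JAKs and receptor chains 10 rose and none fell (median log2 change 0.51), and 5 and 6 were called without ferrostatin-1 library 1 and library 3. IFNGR1, a chain of the interferon gamma receptor, was at 111.9 and 108.1 CPM without TNF and at 312.6, 360.9 and 311.8 CPM with it (log2 1.58 ± 0.17). IFNAR2, a chain of the type I interferon receptor, rose by 1.46 ± 0.11 and STAT5A by 1.41 ± 0.12. IRF1, a factor that NF-kB switches on, was at 82.5 and 93.3 CPM without TNF and at 139.6, 137.6 and 126.5 CPM with it (log2 0.61 ± 0.16, adjusted p = 0.0185). Its call was kept only when TNF library 3 was left out (0.0347), and it reached 0.0504 to 0.162 when another of the 5 was left out.

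Antigen presentation by MHC class I rose from the heavy chains to the peptide supply. Of 24 tested genes 16 rose and none fell (median log2 change 0.85). HLA-B was at 45.9 and 69 CPM without TNF and at 722, 709.9 and 612.3 CPM with it (11.9-fold, log2 3.57 ± 0.19, adjusted p = 5.5e-07). The light chain B2M was at 718.1 and 770.4 CPM without TNF and at 2756.9, 2890.2 and 2351.9 CPM with it (log2 1.84 ± 0.14). TAP1, which carries peptides into the endoplasmic reticulum, went from 64.9 and 80.4 CPM to 281.1, 274.7 and 271.9 CPM (log2 1.93 ± 0.16). In these 3 genes no TNF library came near the ferrostatin-1 libraries. HLA-F (log2 2.51), HLA-C (1.70), HLA-E (1.32), the loading factor TAPBP (1.32), the immunoproteasome subunit PSMB9 (2.53) and the class I activator NLRC5 (1.57) rose too. HLA genes share sequence, so the split of reads among them is uncertain. The deposited interval of HLA-B (31269491 to 31357179 of chromosome 6) also runs into that of HLA-C (31268749 to 31272105), on the same strand. Per length, B2M had 444.1 ± 44.4 FPKM with TNF (SD, n = 3), above HLA-B (226.1).

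The MHC class II pathway and complement moved in part. Of 14 class II pathway genes 5 rose and 2 fell (median log2 change 0.62). CD74, the invariant chain, was at 10.9 and 10.5 CPM without TNF and at 89.2, 78.3 and 87.5 CPM with it (log2 3.00 ± 0.12, adjusted p = 9.3e-08). The protease CTSS, which trims the invariant chain, rose by 2.31 ± 0.13 and the transcription factor gene RFX5 by 0.80 ± 0.10, whereas the peptide exchange gene HLA-DMB fell from 2.8 and 4.39 CPM to 1.18, 0.47 and 0.346 CPM. The rises of HLA-DOB and RFXAP and the fall of HLA-DOA were lost in at least 3 of the fits with 1 of these libraries left out, and 3 rises and 1 fall were left without either ferrostatin-1 library. Of 19 complement genes 5 rose and 3 fell. C3, the central component, was at 19.3 and 6.83 CPM without TNF and at 281.1, 251.2 and 290.3 CPM with it (log2 4.39 ± 0.36). The ferrostatin-1 libraries differed here by more than any pair of TNF libraries on a fold scale, and the groups did not overlap. CFB rose from 15 and 16.7 CPM to 112.2, 96.6 and 102.3 CPM (log2 2.71 ± 0.13), C1S by 2.27 ± 0.27, C1R by 2.02 ± 0.22 and C1RL also rose. CLU fell, and the calls of CFD and CD55 were kept in at most 1 of the fits with 1 of these libraries left out.

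DNA replication genes rose as a body in ferrostatin-1-treated cells given TNF. Of 47 tested genes 43 rose and none fell, and all 47 lay higher in every TNF library than in both ferrostatin-1 libraries. The median log2 change was 1.05, beside 0.02 for all tested genes. PCNA, the sliding clamp of the replication fork, was at 116.4 and 118.8 CPM without TNF and at 315.4, 325 and 299.5 CPM with it (log2 1.41 ± 0.14, adjusted p = 4.5e-05). MCM2 and MCM5, subunits of the replicative helicase, were at 138.9 and 148.7 CPM and at 62.9 and 63.2 CPM without TNF. With TNF they were at 366.8, 321.8 and 342.4 CPM (log2 1.26 ± 0.12) and at 137.4, 121.9 and 134.9 CPM (log2 1.06 ± 0.13). RRM2, a subunit of the enzyme that makes deoxynucleotides, went from 95.2 and 86.7 CPM to 192.4, 190.6 and 184.8 CPM (log2 1.06 ± 0.10). GINS1, another helicase component, rose by 1.42 ± 0.14, and the genes of the S phase activators E2F1 (log2 1.07) and E2F2 (1.86) and of DNA ligase 1, LIG1 (1.78), rose as well. Without ferrostatin-1 library 1 or 3, 35 and 33 of the 47 were called.

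Mitosis genes rose less evenly. Of 42 tested genes 16 rose and none fell, with a median log2 change of 0.65, and 36 lay higher in every TNF library than in both ferrostatin-1 libraries. The median was 0.71 without ferrostatin-1 library 1 and 0.56 without library 3. The calls numbered 12 or 13 without 1 TNF library, 26 with DESeq2, and 34 with limma voom or with the TNF-alone group out of the fit. AURKB, a mitotic kinase, was at 29.9 and 27.1 CPM without TNF and at 43.6, 45.3 and 47.8 CPM with it (log2 0.68 ± 0.10). MAD2L1 (log2 0.92), of the spindle checkpoint, KIF2C (0.55), a microtubule motor, and CDCA8 (0.56), a partner of AURKB, rose in all of these fits. MKI67, the proliferation marker Ki-67, was at 288.3 and 297.1 CPM without TNF and at 304.2, 274.4 and 371.1 CPM with it. The groups overlapped and MKI67 was not called (log2 0.11 ± 0.12, adjusted p = 0.606). Among 22 genes of the G1 phase 5 rose (CCNE1, CCNE2, CDK2, RBL1 and E2F3) and 2 fell (CDKN2B and E2F4). CCNE1, which encodes cyclin E1, rose by 1.08 ± 0.19 and its partner CDK2 by 0.70 ± 0.10 in every fit. The calls of E2F3, CCNE2, RBL1, E2F4 and CDKN2B, an inhibitor of CDK4 and CDK6, ended without ferrostatin-1 library 3 (CDKN2B adjusted p = 0.075), and those of CCNE2, RBL1, E2F4 and CDKN2B did so without library 1 (CDKN2B 0.0528).

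Targets of ATF4, the transcription factor of the integrated stress response, fell. Of 47 tested genes 38 fell and none rose, and the median log2 change was -1.11. Without ferrostatin-1 library 1 or 3, 35 and 33 fell. CHAC1, which degrades glutathione, was at 106.4 and 105.8 CPM without TNF and at 15.1, 18.8 and 16.2 CPM with it (6.36-fold lower, log2 -2.67 ± 0.26, adjusted p = 4.7e-05). SESN2, a stress-induced inhibitor of mTORC1, was at 130.5 and 135.3 CPM without TNF and at 28.7, 31.7 and 28 CPM with it (log2 -2.17 ± 0.22). DDIT3, which encodes the factor CHOP, went from 57.8 and 53.2 CPM to 9.69, 11.4 and 7.78 CPM (log2 -2.53 ± 0.27). Each of these genes was lower in every TNF library by a wide margin. ATF4 itself was at 888 and 841.3 CPM without TNF and at 316.6, 365.1 and 319.2 CPM with it (log2 -1.37 ± 0.18). GARS1, a tRNA synthetase, fell by 1.24 ± 0.14 and ASNS, which makes asparagine, by 1.32 ± 0.22. TRIB3, a pseudokinase that restrains ATF4, fell from 687.8 and 713.2 CPM to 91.2, 112.2 and 97.5 CPM. Among 25 genes of the endoplasmic reticulum stress response 9 fell and 2 rose (median log2 change -0.38), with 5 and 7 falls without ferrostatin-1 library 1 and library 3. ERN2, the sensor IRE1 beta of mucus-producing epithelium, fell from 61.5 and 62.6 CPM to 17.9, 14.6 and 17.3 CPM, HERPUD1 by 1.06 ± 0.15 and the transcription factor gene XBP1 by 0.92 ± 0.16. The 2 rises were ERO1A, an oxidase of disulfide formation, and the chaperone gene CALR, and neither was called without ferrostatin-1 library 3.

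Immediate early genes, the first to answer growth factor signals, fell in part after 72 h of TNF. Of 27 tested genes 13 fell and none rose (median log2 change -0.81), 19 lay lower in every TNF library than in both ferrostatin-1 libraries and 3 higher, and 10 and 11 fell without ferrostatin-1 library 1 and library 3. FOS was at 59.1 and 54.4 CPM without TNF and at 13.1, 12.8 and 15.2 CPM with it (log2 -2.05 ± 0.13, adjusted p = 1.8e-06). JUN, its partner in the factor AP-1, was at 244.6 and 242.6 CPM without TNF and at 120.6, 133.7 and 132.5 CPM with it (log2 -0.92 ± 0.09). DUSP1, a phosphatase of MAP kinases, fell by 1.39 ± 0.15 and ZFP36, which speeds decay of cytokine messages, by 1.40 ± 0.15. Of 20 p53 targets 3 rose and 4 fell (15% and 20%, median log2 change -0.05), beside 8.76% and 9.36% of all tested genes. GDF15, a stress-induced cytokine that ATF4 also controls, was at 676.1 and 686.1 CPM without TNF and at 126.4, 141.7 and 138 CPM with it (5.03-fold lower, log2 -2.33 ± 0.27). PLK3, a stress kinase, fell too, and TP53I3 was the other fall besides SESN2 and GDF15, with no call without ferrostatin-1 library 3. DDB2, of nucleotide excision repair, rose by 1.58 ± 0.23 and PHLDA3, an inhibitor of AKT, by 1.18 ± 0.15.

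**Figure D3:**
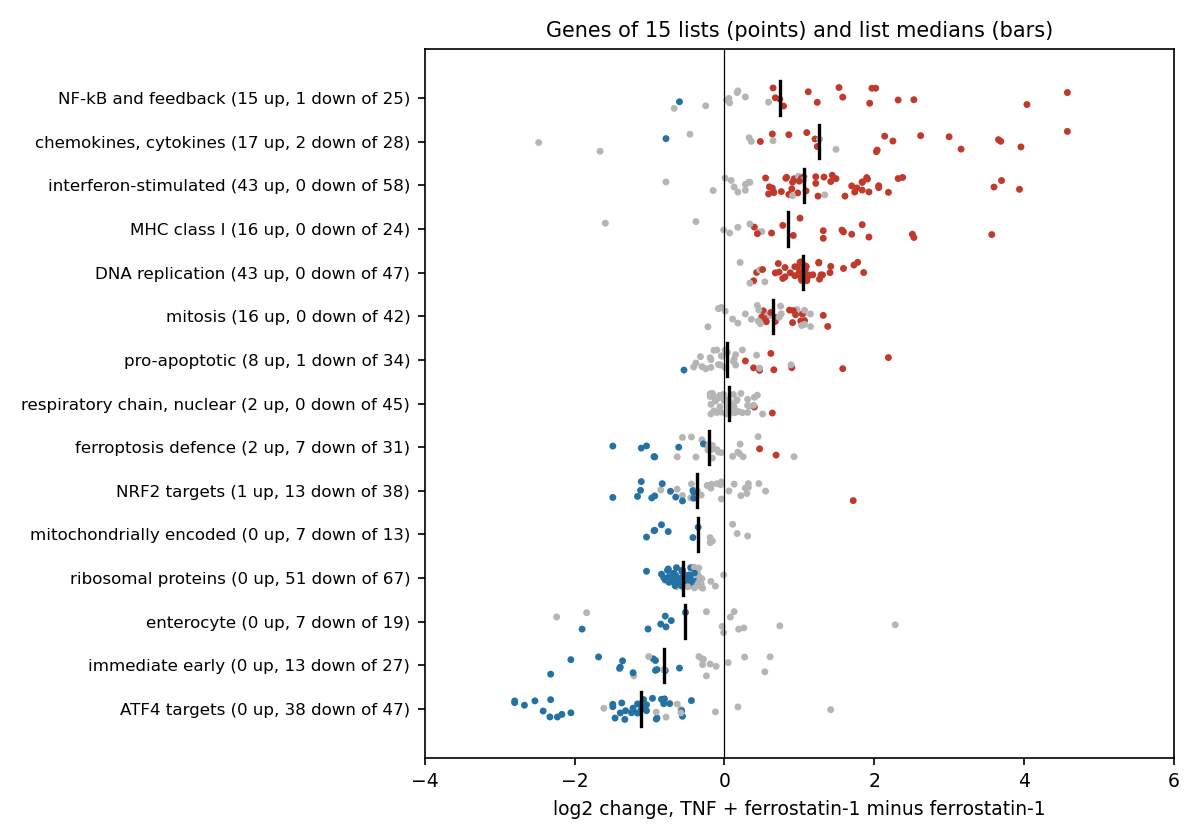
Log2 change with TNF in ferrostatin-1-treated cells for the genes of 15 lists, 1 point a gene, with called rises in red, called falls in blue, uncalled genes in grey and a black bar at the median of each list. Medians run from -1.11 for ATF4 targets to 1.26 for chemokines and cytokines, and the points of the ribosomal list lie close together below 0.

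Genes of the ribosome fell by small amounts. Of 67 cytosolic ribosomal protein genes 51 fell and none rose, with a median log2 change of -0.55, and 64 lay lower in every TNF library than in both ferrostatin-1 libraries. This count moved with single libraries: 32, 46 and 27 fell without TNF library 1, 2 and 3. The median log2 change was -0.50 without ferrostatin-1 library 1 and -0.59 without library 3. RPLP0, a protein of the ribosomal stalk, was at 2537.8 and 2413.1 CPM without TNF and at 1175.4, 1303.4 and 1137.9 CPM with it (2.05-fold lower, log2 -1.04 ± 0.12, adjusted p = 0.00016). RPS6, a phosphorylated protein of the small subunit, fell by 0.81 ± 0.10, and RPL3 and RPL5 each by 0.65. Many pseudogenes resemble these genes, so their counts are uncertain. Of the 13 mitochondrially encoded messages 7 fell and none rose (median log2 change -0.35), and 5 were called without either ferrostatin-1 library. MT-CO3, a subunit of cytochrome c oxidase, was at 5415.1 and 5421.4 CPM without TNF and at 2823.1, 2787.6 and 2902.7 CPM with it (log2 -0.93 ± 0.07). MT-ND2 fell by 1.04 ± 0.11, MT-ND3 by 0.94 ± 0.08 and MT-CYB by 0.84 ± 0.08. Nuclear-encoded subunits of the respiratory chain did not move with them: of 45 tested genes 2 rose and none fell, and the median was 0.06. The 2 rises, ATP5MC1 and SDHA, were kept in at most 1 of the fits with 1 of these libraries left out.

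Among genes tied to ferroptosis, the process that ferrostatin-1 blocks, more were called lower than higher, though most were not called. Of 31 defence genes 2 rose and 7 fell (6.45% and 22.6%, median log2 change -0.21), while the list of drivers and markers had 2 rises and 5 falls among 28 (7.14% and 17.9%, median -0.07). Over all tested genes the shares were 8.76% and 9.36%. Without ferrostatin-1 library 1 the defence calls were 1 rise and 5 falls and the driver calls 3 falls, and without library 3 they were 1 and 4 and 4 falls. GPX4, the enzyme that repairs lipid peroxides, was at 219.9 and 221.5 CPM without TNF and at 217.7, 213.5 and 194.7 CPM with it (log2 -0.08 ± 0.13, adjusted p = 0.739). SLC7A11, the cystine importer, was at 335.6 and 375.3 CPM without TNF and at 109.6, 138.5 and 131.8 CPM with it (log2 -1.49 ± 0.33, adjusted p = 0.00841), and its call ended without ferrostatin-1 library 3 (0.0604). Its partner chain SLC3A2 went from 757.4 and 727.4 CPM to 336.5, 394.6 and 354.8 CPM (log2 -1.04 ± 0.19). SLC7A11, SLC3A2 and the driver genes CHAC1 and ATF3 are also members of the ATF4 list. AIFM2, which encodes the coenzyme Q reductase FSP1, was at 100 and 100.6 CPM without TNF and at 65.6, 67.9 and 63.5 CPM with it (log2 -0.61 ± 0.14). The call of AIFM2 ended without ferrostatin-1 library 1 (adjusted p = 0.0623) or library 3 (0.0645). ACSL4, which primes membranes with polyunsaturated lipids, lay at 76 and 66.5 CPM without TNF and 67.6, 62.6 and 63.8 CPM with it (adjusted p = 0.841). The 2 defence genes that rose were HSPB1, a small heat shock protein, in every fit, and GCH1, whose call ended without ferrostatin-1 library 1 (0.0556) or library 3 (0.142). PTGS2, used as a marker of ferroptosis, was at 6.38 and 7.15 CPM without TNF and at 11, 12.5 and 12.8 CPM with it and was just short of a call (log2 0.84 ± 0.27, adjusted p = 0.0512). PTGS2 was called in 6 of 15 other settings, among them DESeq2, limma voom and the ferrostatin-1 groups alone.

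NRF2 targets, the genes of the antioxidant response, leaned downward. Of 38 tested genes 13 fell and 1 rose (median log2 change -0.37), with 10 and 8 falls without ferrostatin-1 library 1 and library 3. NQO1, a quinone reductase, was at 961 and 859.4 CPM without TNF and at 458.3, 510.1 and 469.3 CPM with it (log2 -0.93 ± 0.12, adjusted p = 3e-04). FTL, the ferritin light chain that stores iron, was at 3352.2 and 3136.6 CPM without TNF and at 1390.3, 1695.3 and 1409.4 CPM with it (2.17-fold lower, log2 -1.11 ± 0.17). FTH1, the ferritin heavy chain, was at 5786.4 and 6506.2 CPM without TNF and at 4243.7, 4791.5 and 4550.2 CPM with it. FTH1 lay lower in all 3 TNF libraries but was not called (log2 -0.44 ± 0.14, adjusted p = 0.0529), though it was called in 5 of 15 other settings, DESeq2 and limma voom among them. UGDH, of glucuronic acid synthesis, fell by 0.83 ± 0.09 and the aldo-keto reductase AKR1B10 by 1.16 ± 0.13. AKR1C2 fell by 1.12 ± 0.17 and AKR1C3 by 0.72 ± 0.11. AKR1C1 lay at 74.1 and 69.1 CPM without TNF and 60.2, 90.8 and 72.8 CPM with it. These 3 genes are related in sequence, so their split of reads is uncertain. HMOX1, heme oxygenase, lay at 29.7 and 17.5 CPM without TNF and 11.1, 17.5 and 19.3 CPM with it (adjusted p = 0.146). The 1 rise was CBR3, a carbonyl reductase, whose call ended without ferrostatin-1 library 3 (0.0566).

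Other redox and iron genes went both ways. SOD2, the mitochondrial superoxide dismutase and a known NF-kB target, was at 38.7 and 38.9 CPM without TNF and at 143.4, 142.4 and 132.8 CPM with it (log2 1.85 ± 0.08, adjusted p = 2.1e-07). NOXO1, the organizer of the epithelial NADPH oxidase NOX1, went from 1.74 and 2.16 CPM to 18.4, 16.3 and 16.1 CPM (log2 3.12 ± 0.36). TXNIP, an inhibitor of thioredoxin and of glucose uptake, fell from 800.5 and 763.3 CPM to 196.9, 200.4 and 187.6 CPM (4.01-fold lower, adjusted p = 6.9e-05). SOD2 and TXNIP thus changed in opposite directions with no overlap. Of the 28 superoxide, thioredoxin and oxidase genes 4 rose and 3 fell, the others being DUOX1, GPX8, GPX1 and GPX3. These rises and falls were 14.3% and 10.7% of the list, near the 8.76% and 9.36% of all tested genes. GPX3, the secreted glutathione peroxidase, fell by 1.38 ± 0.17 in every fit, while the call of DUOX1 ended without ferrostatin-1 library 1, and those of GPX8 and GPX1 ended without any 1 of the 5 libraries. The list's counts were 2 rises and 2 falls without library 1 and 4 rises and 2 falls without library 3, where DUOX2, not called with all libraries, was 1 of the rises. Of 23 iron genes 5 fell and 2 rose (21.7% and 8.7%, median log2 change 0.22). SLC39A14, a zinc and iron importer, fell by 0.70 ± 0.12, ACO1, the iron regulatory protein 1, by 0.64 ± 0.11, and HEPH, the ferroxidase of iron export, by 1.52 ± 0.26. PCBP2, an iron chaperone, also fell. LCN2, which binds bacterial siderophores, lay at 239.2 and 251.2 CPM without TNF and 421, 453.7 and 399.8 CPM with it, and neither its call nor that of SLC11A2 was kept without ferrostatin-1 library 1 or 3 (LCN2 adjusted p = 0.1 and 0.0735).

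Genes of cell death rose more often than they fell. Of 18 anti-apoptotic genes 7 rose and 3 fell (median log2 change 0.18), while caspases and other pro-apoptotic genes had 8 rises and 1 fall among 34 (0.03). Without ferrostatin-1 library 1 and library 3 the pro-apoptotic rises were 3 and 5 and the 1 fall was lost, and the anti-apoptotic list had 7 rises and 0 falls and 5 rises and 1 fall. BIRC3, the ubiquitin ligase cIAP2 that protects from TNF, was at 13.8 and 17.7 CPM without TNF and at 255.5, 272.4 and 248.3 CPM with it (log2 4.04 ± 0.56, adjusted p = 0.00053). CFLAR, which encodes the caspase-8 inhibitor c-FLIP, was at 60.8 and 64.9 CPM without TNF and at 84.5, 87.5 and 88 CPM with it (log2 0.46 ± 0.08). TRAF1 rose by 1.24 ± 0.19 and TRAF2 by 0.74 ± 0.10, both adaptors of TNF receptors. BCL2L1, which encodes BCL-XL, was at 536 and 513.6 CPM without TNF and 353.8, 360.1 and 341.4 CPM with it (log2 -0.58 ± 0.16), and its call ended without any 1 of the 5 libraries (adjusted p 0.0574 to 0.133). BAG1 and FAIM, the other 2 falls, were not called without ferrostatin-1 library 1, nor BAG1 without library 3. BID, which links caspase-8 to mitochondria, was at 60.4 and 53.7 CPM without TNF and at 107.6, 109.5 and 102.8 CPM with it (log2 0.90 ± 0.13). CASP8 was at 59.6 and 63.4 CPM without TNF and at 61.7, 65.9 and 62.5 CPM with it, with overlap (adjusted p = 0.831). The fall among pro-apoptotic genes was that of DFFA, the inhibitor of the caspase-activated nuclease.

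Of 18 genes of necroptosis and pyroptosis, the lytic forms of programmed death, 6 rose and 2 fell (median log2 change -0.01). MLKL, the executor of necroptosis, was at 30 and 28.1 CPM without TNF and at 42.4, 41.8 and 42.6 CPM with it (log2 0.54 ± 0.10, adjusted p = 0.0027). RIPK3, the kinase that activates MLKL, was at 21.5 and 25.1 CPM without TNF and at 17.8, 20.6 and 15.5 CPM with it (log2 -0.38 ± 0.16, adjusted p = 0.14). ZBP1, a sensor of Z-form nucleic acids, went from 0.622 and 1.48 CPM to 7.09, 6.14 and 4.63 CPM (log2 2.51 ± 0.45). CASP1, the inflammatory caspase, rose by 1.93 ± 0.32 and GSDMB, a pore-forming protein, by 0.83 ± 0.11, while GSDMD lay at 63.8 and 66.7 CPM without TNF and 66.9, 55.6 and 61.1 CPM with it (adjusted p = 0.681). The 2 falls were IL1B, described above, and NLRP3, whose call ended without ferrostatin-1 library 1 (0.0528). The list had 5 rises and 0 falls without that library and 5 rises and 1 fall without library 3.

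Genes of epithelial identity and differentiation fell where they were called. Of 20 identity genes 8 fell and none rose (median log2 change -0.29), of 19 enterocyte genes 7 fell and none rose (-0.52), and of 21 mucin and goblet cell genes 5 fell and none rose (-0.37). The identity count was 5 without either ferrostatin-1 library and without TNF library 2 or 3. The enterocyte falls numbered 5 and 4 without ferrostatin-1 library 1 and 3, and the goblet falls 3 in both. LGALS4, an intestinal galectin, was at 677.2 and 678.6 CPM without TNF and at 152.8, 174 and 161.1 CPM with it (4.17-fold lower, log2 -2.06 ± 0.17, adjusted p = 1.2e-05). CDH1, which encodes E-cadherin, was at 642.3 and 670.5 CPM without TNF and at 306.1, 312.1 and 323.2 CPM with it (log2 -1.06 ± 0.09). The intestinal regulator HNF4A fell by 0.78 ± 0.12 and the brush border genes VIL1 and CDHR5 by 0.71 ± 0.08 and, for the latter, from 55.6 and 71.8 CPM to 17.4, 16.4 and 17.3 CPM. CA12, a carbonic anhydrase, fell by 1.02 ± 0.09. AGR2, a disulfide isomerase needed for mucin folding, went from 130.2 and 126.2 CPM to 35.3, 48.4 and 41.2 CPM (log2 -1.62 ± 0.15), and the goblet cell factor SPDEF and the mucus protein FCGBP fell by 1.66 ± 0.19 and 1.86 ± 0.18. The other 2 goblet calls, of KLF4 and ST6GALNAC1, ended without ferrostatin-1 library 1 or 3. KRT8 and KRT18 lay at like levels in both groups, as given above for the marker check.

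Junction genes fell more often than they rose, and matrix genes went both ways. Of 26 claudins, junction partners and keratins 8 fell and 2 rose (median log2 change -0.19), and 2 and 5 fell without ferrostatin-1 library 1 and library 3. CLDN2, a claudin that forms cation channels, was at 19.9 and 21.5 CPM without TNF and at 8.73, 8.3 and 8.56 CPM with it (log2 -1.28 ± 0.22). KRT15 rose by 1.63 ± 0.23 and CLDN7 fell by 0.66 ± 0.14, whereas the other rise, CLDN23, was lost in every fit with 1 of these libraries left out. KRT81 was called lower, but was high in ferrostatin-1 library 1 alone: it had 57.1 CPM there, 1.45 CPM in library 3 and 1.47, 1.73 and 1.79 CPM with TNF. Without that library the change was 0.20 on the log2 scale (adjusted p = 0.965), and the call also ended without any 1 of the 3 TNF libraries. Of 25 matrix genes 4 rose and 3 fell (16% and 12%, median log2 change 0.16), beside 8.76% and 9.36% of all tested genes. MMP7, an epithelial matrix protease, was at 98.1 and 101.8 CPM without TNF and at 301.1, 343.9 and 239.1 CPM with it (log2 1.56 ± 0.14), and ADAM8 rose by 1.51 ± 0.10. TGFB2 fell by 1.81 ± 0.32, MMP24 by 0.88 ± 0.14, and PLAUR, the urokinase receptor, fell too. MMP14 and TIMP2 were the other 2 rises, and their calls ended without ferrostatin-1 library 1 and library 3, in that order.

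The largest falls among single genes included several with firm values in all libraries. UNC5B, a netrin receptor, was at 100.7 and 113.9 CPM without TNF and at 12.3, 11.6 and 12 CPM with it (log2 -3.17 ± 0.48, adjusted p = 0.00091). WNK4, a kinase of ion transport, was at 9.23 and 8.55 CPM without TNF and at 0.929, 0.996 and 0.85 CPM with it (log2 -3.26 ± 0.19). CD200, an inhibitory surface protein, went from 6.53 and 5.18 CPM to 0.624, 0.208 and 0.472 CPM (log2 -3.76 ± 0.38), and IHH, which encodes Indian hedgehog, from 1.48 and 2.18 CPM to 0, 0.083 and 0.063 CPM. C11orf53 (log2 -3.61), ADH6 (-3.19), an alcohol dehydrogenase, MALRD1 (-3.17) and LRRC2 (-3.10) were others with no overlap. Of the 20 largest falls 4 were short mitochondrial transfer RNA genes (MT-TM, MT-TD, MT-TV and MT-TQ), which poly(A) libraries count poorly. A further 6, BEST1, RFLNA, IGFBP3, ANXA8, AL161431 and AL022311, were 5 or more times higher in ferrostatin-1 library 1 than in library 3, and none was called without library 1. Their log2 changes without it were -1.01, -1.66, -1.89, -0.85, -0.32 and -0.70, in that order. The calls of ANXA8 and AL161431 also ended without any 1 of the 3 TNF libraries, that of BEST1 without TNF library 2 or 3 and that of IGFBP3 without TNF library 1 or 2. The deposited intervals of BEST1 (61950063 to 61964461 of chromosome 11, plus strand) and of FTH1 (61959718 to 61967634, minus strand) overlap, and whether reads of FTH1 reached BEST1 was not tested. AC005726 had no count in any TNF library, but its call was lost in every fit with 1 of the 5 libraries left out. SSTR5-AS1 is an antisense gene and its value is uncertain.

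Metabolic lists held calls in both directions. Of 26 cholesterol synthesis genes 5 rose and 1 fell (median log2 change 0.25), of 27 fatty acid genes 3 rose and 4 fell (-0.07), of 21 lipid droplet and PPAR genes 2 rose and 3 fell (-0.06), and of 30 glycolysis and hypoxia genes 5 rose and 3 fell (0.07). Their rises were 9.52% to 19.2% of the genes and their falls 3.85% to 14.8%, against 8.76% and 9.36% of all tested genes. Few of these calls were kept with a ferrostatin-1 library left out. Without library 1 and library 3 the cholesterol calls numbered 2 and 2, the fatty acid calls 1 and 1, the droplet and PPAR calls 2 and 1, and the glycolysis calls 2 and 4. The fatty acid calls numbered 1 or 2 without a TNF library as well. HSD17B7, of late cholesterol synthesis, rose by 0.84 ± 0.15, ACSL1, an acyl-CoA synthetase, by 0.56 ± 0.10 and ENO2, an enolase, by 0.61 ± 0.10. G0S2, an inhibitor of fat breakdown, fell from 49.1 and 50.5 CPM to 14.1, 17.8 and 15.5 CPM (log2 -1.65 ± 0.28), and VEGFA, the vascular growth factor, from 472.7 and 483.1 CPM to 233, 260.9 and 257 CPM (log2 -0.93 ± 0.16). SCD, the stearoyl-CoA desaturase, was at 894.9 and 836.8 CPM without TNF and 747.3, 675.4 and 719.4 CPM with it (log2 -0.28 ± 0.07, adjusted p = 0.019). The call of SCD was kept only without TNF library 1 (0.0308), and without another of the 5 libraries its adjusted p was 0.0502 to 0.175. Of 44 lysosomal genes 10 rose and 4 fell, led by CTSS, CTSA (log2 0.71) and GLA (0.65), a protease and an enzyme of glycolipid breakdown, and without ferrostatin-1 library 1 and library 3 there were 7 and 5 rises and 2 and 1 falls. PTGES, which makes prostaglandin E2, rose by 2.19 ± 0.20 and HPGD, which breaks it down, fell by 1.22 ± 0.21. CYP1A1, a target of the aryl hydrocarbon receptor, was at 5.94 and 6.71 CPM without TNF and 5.04, 5.67 and 6.03 CPM with it (adjusted p = 0.63).

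**Figure D4:**
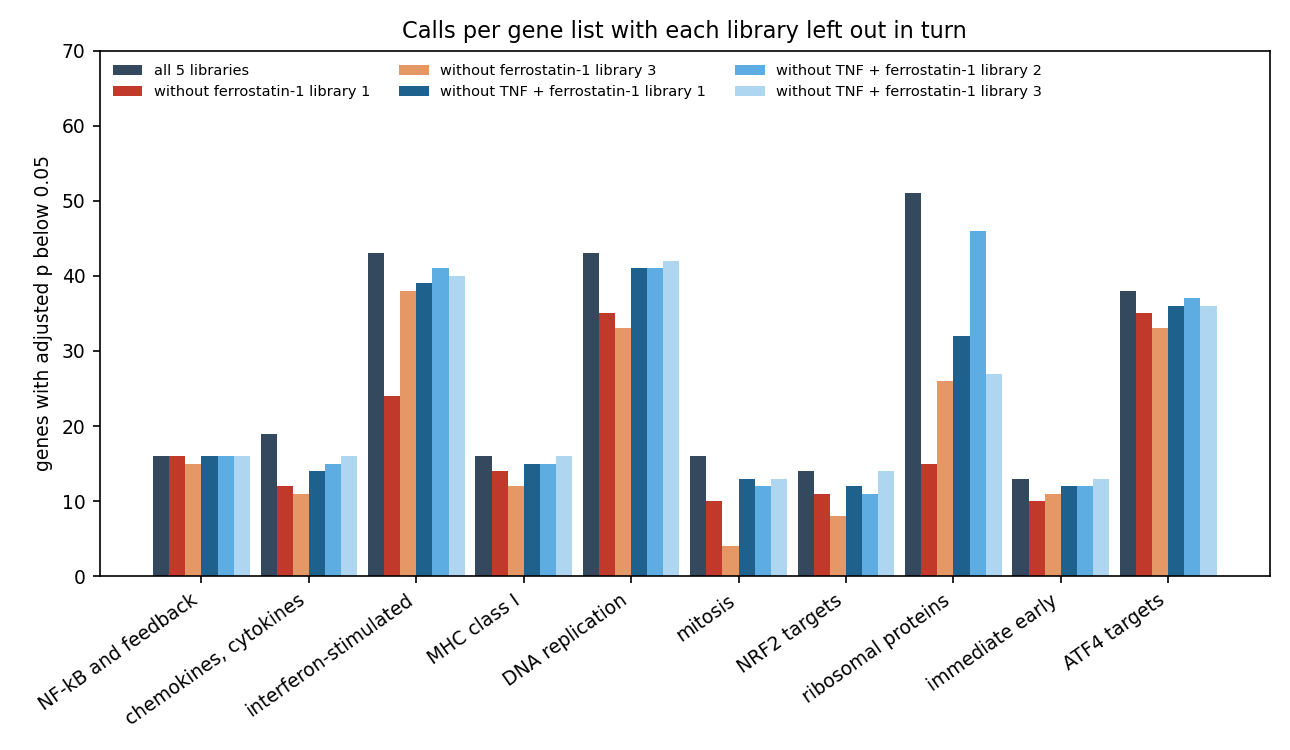
Number of genes called at an adjusted p below 0.05 (vertical axis, from 0) in 10 lists, with all 5 libraries and with each library left out in turn (colours). With all 5 libraries NF-kB and feedback genes have 16 calls, ATF4 targets 38 and ribosomal protein genes 51. Ribosomal protein genes have 32, 46 and 27 calls without TNF + ferrostatin-1 library 1, 2 and 3. Bars without a ferrostatin-1 library rest on 1 library of that group.

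Whether the response to TNF differed from that in cells without inhibitor was tested as a difference of the 2 TNF effects, which share no library. edgeR called 1 gene (0.00451% of those tested), while 4238 genes (19.1%) had an unadjusted p below 0.05. The gene was WDR76, a nuclear protein bound at sites of DNA damage. It was at 11.6 and 13.3 CPM with ferrostatin-1 and at 34.7, 35.4 and 34.7 CPM with ferrostatin-1 and TNF. Without inhibitor it was at 25.8, 30.2 and 24.5 CPM in control cells and at 22.5 and 26.6 CPM with TNF. WDR76 thus rose with TNF in ferrostatin-1-treated cells, from a level below the controls, and its difference of effects was 1.62 ± 0.18 on the log2 scale (95% interval 1.22 to 2.02, adjusted p = 0.0303). The count of this test varied widely with the setting. DESeq2 called 1331 genes and limma voom 12. A fit without a library of TNF alone has only 1 library in that group. Leaving out library 3 of TNF alone gave 6147 and leaving out its library 1 gave 217, and these are the 2 libraries that were 2-fold apart in 1726 genes. The count was also 38 without control library 2, 27 without control library 3 and 7 without ferrostatin-1 library 3, and 0 without control library 1 or without library 1 or 3 of TNF with ferrostatin-1.

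Several lists had a shifted median in this difference even though no member passed edgeR's test. Replication genes had a median difference of 0.90, with all 47 above 0 (smallest adjusted p = 0.0502), mitosis genes 0.88 with 36 of 42 above 0, ATF4 targets -0.74 with 40 of 47 below 0 and immediate early genes -0.65 with 26 of 27 below 0. DESeq2 called 38 replication genes, 12 mitosis genes, 19 ATF4 targets and 12 immediate early genes in these directions. Without library 1 of TNF alone the medians of these lists were 0.80, 0.57, -0.46 and -0.53, in the same order. Without library 3 of TNF alone they were 0.95, 1.1, -0.94 and -0.71. Each of these fits rests on 1 library of TNF alone. Levels of MCM5 show the pattern. They were 108.6, 134.9 and 96.7 CPM in control cells and 108.8 and 116.6 CPM with TNF, against 62.9 and 63.2 CPM with ferrostatin-1 and 137.4, 121.9 and 134.9 CPM with both (difference of effects 1.07, interval 0.68 to 1.45, adjusted p = 0.0544). CHAC1 was at 91.8, 48.9 and 89.4 CPM in control cells and at 68.2 and 39.6 CPM with TNF, against 106.4 and 105.8 CPM with ferrostatin-1 and 15.1, 18.8 and 16.2 CPM with both (difference -2.16, interval -2.94 to -1.38, adjusted p = 0.0544). Library 3 of TNF alone lay lower than library 1 for CHAC1, and control library 2 lower than the other controls. NF-kB and feedback genes had a median difference of -0.19 with 15 of 25 below 0, while the medians of the 2 effects were 0.74 with ferrostatin-1 and 0.71 without inhibitor, and for TNFAIP3 the difference was 0.39 with an interval of 0.02 to 0.76 (adjusted p = 0.239).

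**Figure D5:**
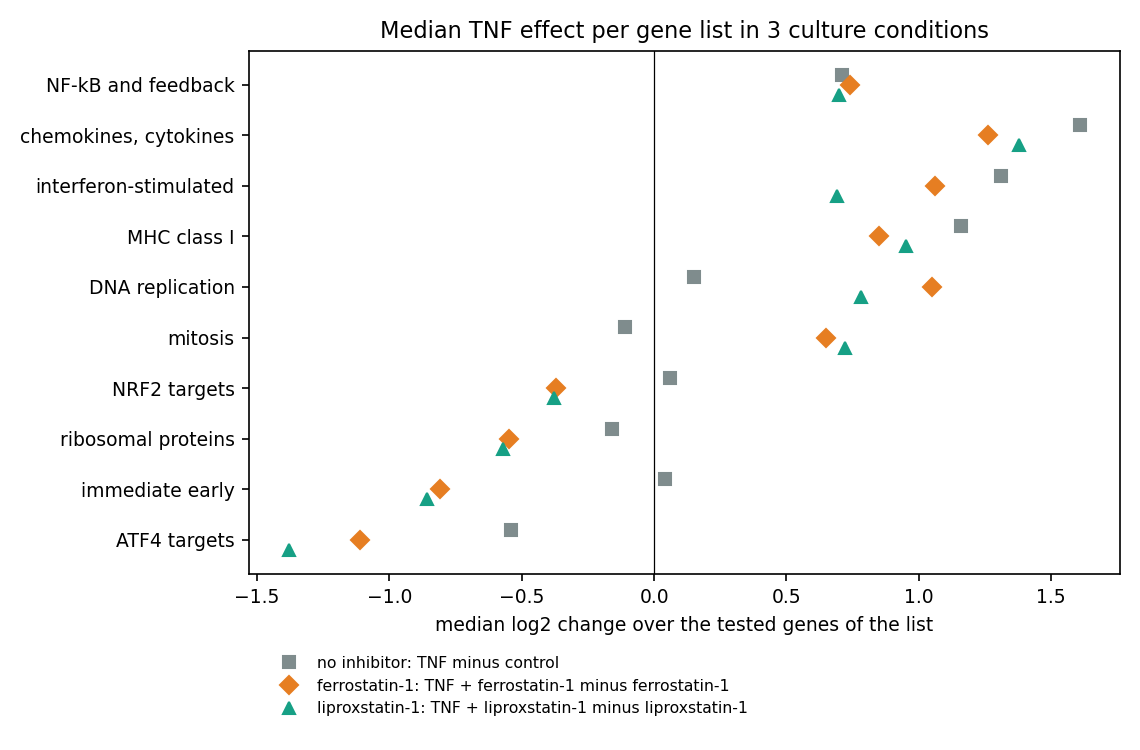
Median log2 change with TNF over the tested genes of 10 lists (horizontal axis) in cells without inhibitor (grey squares), with ferrostatin-1 (orange diamonds) and with liproxstatin-1 (green triangles). For NF-kB and feedback genes the 3 medians are 0.71, 0.74 and 0.70, and for DNA replication they are 0.15, 1.05 and 0.78.

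Liproxstatin-1 is another radical-trapping inhibitor of ferroptosis, given here at the same 20 uM. No gene was called (0%) when the TNF effect with ferrostatin-1 was set against that with liproxstatin-1 in edgeR, and 879 genes (3.96%) had an unadjusted p below 0.05. DESeq2 called 19 and limma voom 8. These counts do not show that the responses are alike. For PCNA the difference of effects was 0.35 with an interval of -0.07 to 0.77, for CHAC1 0.85 with an interval of 0.02 to 1.69 and for TNFAIP3 0.44 with an interval of 0.05 to 0.83. Interferon-stimulated genes had a median difference of 0.38, with 57 of 58 above 0, and ATF4 targets 0.30, with 41 of 47 above 0, and in neither list was a member called. SCD had a difference of -0.60 with an interval of -0.83 to -0.36 (adjusted p = 0.417).

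Calls were also set side by side, since the 3 TNF comparisons share no library. TNF against control gave 3255 calls (14.7%), with 8.24% of genes higher and 6.44% lower. TNF with liproxstatin-1 against liproxstatin-1 gave 3240 (14.6%), with 7.57% higher and 7.03% lower. Of the 1943 rises with ferrostatin-1, 937 were also rises without inhibitor, which is 48.2% of the former and 51.3% of the latter. With liproxstatin-1 1203 were shared, 61.9% and 71.6% of the 2 sets. Of the 2076 falls, 563 were shared with cells without inhibitor (27.1% and 39.4%) and 1268 with liproxstatin-1 (61.1% and 81.3%). Opposite calls numbered 4 and 6 for rises and falls against cells without inhibitor, and 2 and 2 against liproxstatin-1. The genes that fell with ferrostatin-1 had a median change of -0.68 there, -0.24 without inhibitor and -0.58 with liproxstatin-1. In all 3 conditions 711 genes rose and 406 fell, and 509 rises and 644 falls were called with ferrostatin-1 only, which is a count of calls and no test of a difference. Across the 22179 tested genes, which are not independent, Spearman's rho between the log2 changes was 0.356 with cells without inhibitor and 0.584 with liproxstatin-1.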

How the data were processed

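Poly(A) RNA of 14 HT-29 libraries in 6 groups was sequenced paired-end after dUTP strand marking, per the labels' protocols. The authors deposited raw counts per gene and FPKM (fragments per kilobase and per total fragments) for each library. Programs in the submitters' processing notes are HISAT2 2.0.4, StringTie 1.3.4d, cutadapt 1.9, DESeq2 and edgeR, with no role or order. No source used here names the genome build, annotation, counting program or use of strand in counting, so overlapping and antisense genes cannot be separated with certainty. Total counts were 59913850 to 75838597 per library.

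Counts were tested with edgeR 4.0.16 (R 4.3.3): filterByExpr, TMM scaling and 1 quasi-likelihood model of the 6 groups with 8 residual degrees of freedom. P-values were adjusted by Benjamini-Hochberg over 22179 genes, with a threshold of 0.05, and ± after a log2 change is its standard error. Deposited FPKM served only to compare levels between genes with TNF, since 6 of the FPKM columns (ferrostatin-1, liproxstatin-1 and TNF alone) carry numbers that match no single sample and were not used. The code was tested on simulated data. A further alternative, without ferrostatin-1 library 1 and without the TNF group, was chosen after seeing the data, and those listed in the closing section were otherwise planned. DESeq2 1.42.0 and limma 3.58.1 were among them.

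Named genes were the 20 largest rises and 20 largest falls (at least 2-fold, mean count at least 50, groups not overlapping), up to 4 called members of each of 45 lists by smallest p, called genes of the differences between TNF effects, and 36 fixed genes. Any other gene in the text was chosen after its values were seen. The members and lists were chosen with earlier results of these data known. A gene can be in several lists. Some genes counted in the lists are not reported here by name.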

Additional observations from a re-analysis of the deposited data

Results flagged for a closer look

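WDR76 was the 1 gene whose response to TNF differed between ferrostatin-1-treated cells and cells without inhibitor by edgeR's test of the difference. The difference of effects was 1.62 on the log2 scale (adjusted p = 0.0303), and the unadjusted test passed in 4238 genes. All 3 libraries with TNF and ferrostatin-1 lay above both with ferrostatin-1 alone, whereas the 2 with TNF alone lay within or just below the range of the 3 controls. With liproxstatin-1 WDR76 lay at 14.8 and 17.1 CPM and with TNF and liproxstatin-1 at 31.5 and 31.1 CPM, and the TNF effects with the 2 inhibitors differed by 0.52 (adjusted p = 1).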

How the results depend on the processing

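The count of 4019 calls was 7240 with limma voom, 6937 with only the 5 ferrostatin-1 libraries in the fit, 6391 with the TNF group left out of it, and 838 when tested against a 1.5-fold change, where 58.2% of calls were rises against 48.3%. It was 1877 to 2870 with 1 of the 5 libraries left out. Scaling by relative log expression, another filter, DESeq2, and the setting without ferrostatin-1 library 1 and the TNF group gave 3310 to 5094 calls. The 1 call of the difference from cells without inhibitor became 17 with relative log expression scaling, 37 with a filter at CPM of at least 1 in 3 libraries, 1331 with DESeq2, 12 with limma voom and 0 to 6147 with 1 library left out. The 0 calls of the difference from liproxstatin-1 became 19 with DESeq2, 8 with limma voom, 1 without the TNF group and 0 to 3 with 1 library left out. Of 197 named genes called, 163 were kept without ferrostatin-1 library 1, 173 without library 3 and 182 to 185 without 1 TNF library. KRT81 changed sign, to 0.20, in both fits without ferrostatin-1 library 1, and ranged from -5.10 to 0.20 with 1 library left out. The causes were not tested.

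The groups share replicate numbers 1 and 3, and the correlations of deviations between same-numbered libraries were -0.04 and -0.001. The deviations of the ferrostatin-1 libraries mirror each other, so these correlations cannot decide whether the numbers pair the libraries. With the replicate block 2916 genes were called, 0 for the difference from cells without inhibitor and 0 for that from liproxstatin-1.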

Other observations

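A few further gene groups were measured. Of 21 transporters and enzymes of drug metabolism 4 fell and none rose (median log2 change -0.36), and the same number was called with any 1 of the 5 libraries left out. They were the export pump ABCC3, the cytochrome CYP2B6 and the alcohol dehydrogenases ADH1C and ADH6. ABCC3 was at 1209.3 and 1334.7 CPM without TNF and at 864.2, 821.6 and 906.8 CPM with it (log2 -0.56 ± 0.10, adjusted p = 0.00328). CYP2B6 was at 8.39 and 8.03 CPM without TNF and at 3.71, 3.86 and 4.77 CPM with it. In both genes the groups did not overlap.

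Of 13 prostaglandin genes 1 rose (PTGES) and 4 fell (PTGES2, AKR1C3, HPGD and PTGS1), and the call of PTGS1 ended without any 1 of the 5 libraries. Of 21 Wnt and stem cell genes 4 rose (NKD1, LRIG1, AXIN2 and TCF7) and 2 fell (CD44 and EPHB3). These were 19% and 9.52% of the list, beside 8.76% and 9.36% of all tested genes. NKD1, a feedback inhibitor of Wnt signalling, was at 8.36 and 9.03 CPM without TNF and at 16.9, 15.7 and 17.1 CPM with it (log2 0.93 ± 0.12), while EPHB3, a receptor of the crypt base, fell by 0.93 ± 0.15. The call of AXIN2 ended without ferrostatin-1 library 1, and that of TCF7 without either ferrostatin-1 library or without TNF library 1. Of 16 targets and partners of the aryl hydrocarbon receptor 2 rose, ALDH3A1 among them, and 4 fell (AHR, CYP2S1, NQO1 and SLC7A5). The call of AHR ended without any 1 of the 5 libraries, and that of ALDH3A1 without ferrostatin-1 library 3. Of 11 tested metallothionein and zinc homeostasis genes 1 rose (MT2A), and its call was not kept without any 1 of the 5 libraries.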
